A study of Homo sapiens with 2 samples.

Results

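The matrix metalloproteinases (MMPs), their tissue inhibitors (TIMPs), the ADAMs and the ADAMTS proteases were examined after SET7/9 knockdown in gastric cancer cells. Members were the gene probes on both arrays whose gene name was MMP with a number and at most 1 letter, or TIMP, ADAM or ADAMTS with a number. This rule gave 91 probes for 67 genes, printed as 109 spots per array, of 34127 gene probes with 25940 gene names. The members were 25 probes for 23 MMP genes, 4 probes for 4 TIMP genes, 32 probes for 21 ADAM genes and 30 probes for 19 ADAMTS genes.

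MKN74 and MKN45 are human gastric cancer cell lines. Both received 50 nM siRNA by electroporation, either against SET7/9 or as a negative control, and total RNA was taken 48 hrs later. SET7/9, encoded by SETD7, is a lysine methyltransferase of histone H3 and of other proteins, and the study asked which genes respond to its loss. Each line was measured on 1 Agilent 2-colour array, with the SET7/9 siRNA sample in Cy5 (red) and the control siRNA sample in Cy3 (green), and the dyes were not swapped. There were therefore no replicates, the scanner's error of a ratio and the spread of repeated spots cover technical error within an array only, and dye and siRNA cannot be told apart. The labels do not say which SET7/9 siRNA was used, and loss of SET7/9 and other effects of the siRNA cannot be told apart either. In such bulk RNA, fewer cells that express a gene and less RNA per cell cannot be told apart.

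MMPs are zinc-dependent endopeptidases that are made as inactive precursors and, once activated, cut collagens, other matrix proteins and many cell surface proteins. TIMPs bind their active sites and block them. ADAMs are membrane-anchored relatives, some of which release growth factors and receptors from the cell surface while others lack a working protease site, and ADAMTS proteases are secreted relatives with thrombospondin repeats that process collagens, proteoglycans and von Willebrand factor. In gastric tumours, MMPs have long been studied in connection with invasion.

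The targeted gene was lower in both lines at 1 SETD7 probe, with log2 ratios of -2.03 in MKN74 and -1.95 in MKN45, whereas the other SETD7 probe gave 0.24 and -0.23. All 5 epithelial marker genes were well above background in both lines. Of 5 fibroblast marker genes, COL1A2, COL3A1 and DCN were not well above background in either line, COL1A1 was above it in both, and LUM in MKN45 only. Of 5 leukocyte marker genes, 3 in MKN74 and 4 in MKN45 were above background in Cy3, and 4 and 5 in at least 1 channel. Their signal summed over the list was 976 and 1072 in Cy3 and 1145 and 1233 in Cy5. Most of the Cy3 sum was CD79A, at 643 and 896, followed in MKN74 by CD68 at 284. Of 3 endothelial marker genes, 1 and 2 were above background in Cy3, and 2 and 3 in at least 1 channel.

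Fewer member probes gave signal than probes in general. In MKN74, 35 of the 91 member probes (38.5%) were well above background in at least 1 channel, against 60.6% of all gene probes, and in MKN45 44 did (48.4%), against 66.9%. The MMP probes were measured equally often in both lines, 14 of 25 in each, and the TIMP probes likewise, 2 of 4. ADAM probes were measured more often in MKN45 (18 of 32) than in MKN74 (15), and ADAMTS probes too (10 of 30 against 4). By gene, 23 were measured in both lines, 4 in MKN74 alone (ADAM21, ADAM32, MMP24 and MMP3) and 12 in MKN45 alone, among them MMP7, MMP10, ADAM19, ADAM22, ADAM23, ADAMTS8 and ADAMTS10. By probe, 35 members were measured in MKN74, 44 in MKN45 and 29 in both, beside 20674, 22830 and 19595 of all gene probes. The 28 genes measured in neither line included MMP2 (gelatinase A), the collagenases MMP8 and MMP13, the macrophage elastase MMP12, TIMP3, TIMP4 and 11 ADAMTS genes.

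The channels did not detect equally. The dimmest Cy5 signal that the scanner software called well above background was 9.96 in MKN74 and 8.89 in MKN45, and the dimmest such Cy3 signal was 17.4 and 15.9. Accordingly 9 member probes on each array were measured in Cy5 only, and 0 and 1 in Cy3 only. Over all gene probes the same counts were 2025 and 2452 in Cy5 only and 67 and 97 in Cy3 only. A member measured only in Cy5 entered through the knockdown sample alone, which ties its ratio to its selection, so the results below lead with the members measured in both channels, 26 in MKN74 and 34 in MKN45. A log2 ratio is that of Cy5 over Cy3, and a probe was counted as higher or lower at 1.5-fold or more, the cutoff of the study.

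In MKN74, the interstitial collagenase MMP1 and the gelatinase MMP9 were higher after SET7/9 knockdown, and the stromelysin MMP11 and the von Willebrand factor-cleaving protease ADAMTS13 were lower. These were the 2 higher and 2 lower of the 26 member probes measured in both channels. Among all probes measured in both channels, 0.64% were higher and 1.45% lower. MMP1 and MMP9 are 2 of the genes that the study itself took from these arrays, so their place here is no independent support. By RT-PCR after knockdown, the study reported higher MMP1 in every line it examined, MKN45 among them. It reported higher MMP9 in MKN74 and higher MMP7 in the other lines. When SET7/9 was overexpressed in MKN7 cells, it reported lower MMP1, MMP7 and MMP9.

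MMP1, with its probe on chr11:102660697-102660756 (GRCh37, minus strand), was printed as 10 spots per array. In MKN74 its Cy3 signal had a median of 36.9 over the spots (28.7 to 43.1) and its Cy5 signal a median of 80.2 (72.1 to 90.9). The channels did not overlap over the spots, all 10 spots lay past the cutoff, and the mean log2 ratio was 1.13 ± 0.15 (SD over 10 spots), a 2.20-fold difference. In MKN45 the Cy3 median was 112 (103 to 135) and the Cy5 median 167 (156 to 178). There the channels did not overlap either, but the mean log2 ratio was 0.55 ± 0.11 (SD over 10 spots), just under the cutoff of 0.58, and 4 of 10 spots passed it.

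MMP9, which cleaves denatured collagen and basement membrane collagen and has its probe on chr20:44645121-44645180 (GRCh37, plus strand), was also printed as 10 spots per array, of which 1 outlier in MKN74 was left out. In MKN74 its Cy3 signal had a median of 113 (102 to 124) and its Cy5 signal a median of 250 (245 to 265). All 9 spots passed the cutoff, and the mean log2 ratio was 1.16 ± 0.07 (SD over 9 spots), or 2.24-fold. In MKN45 the Cy3 median was 39.7 (28.2 to 47.0) and the Cy5 median 46.6 (35.1 to 54.3). Here the channels overlapped, 0 of 10 spots passed, and the log2 ratio was 0.25 ± 0.18 (SD over 10 spots).

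**Figure D1:**
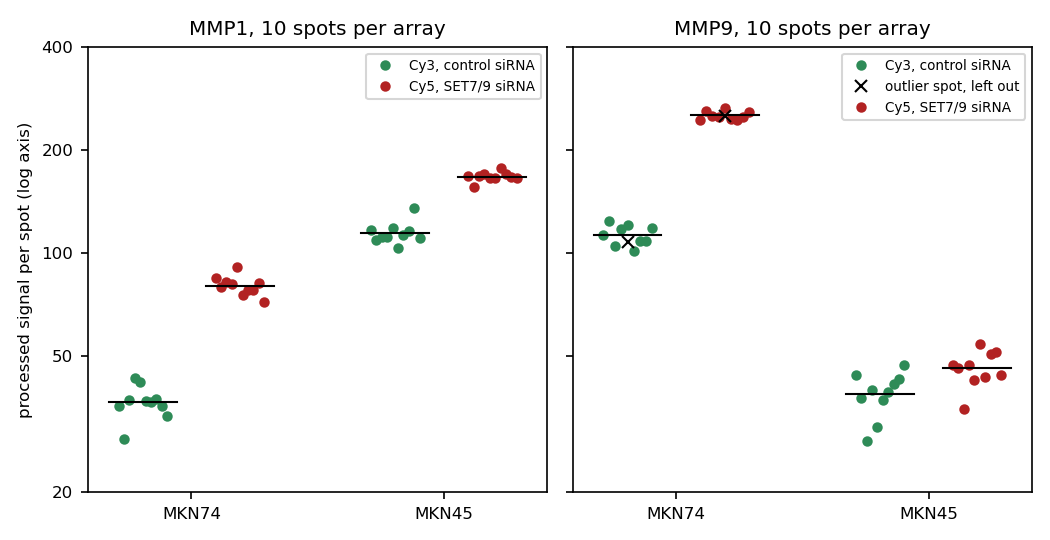
Processed signal of each spot of MMP1 (left) and MMP9 (right) on a log axis, with Cy3 (control siRNA, green) and Cy5 (SET7/9 siRNA, red) side by side for MKN74 and MKN45; black lines are means and the cross is the outlier spot left out. In MKN74 the Cy5 spots lie above the Cy3 spots for both genes, whereas for MMP9 in MKN45 the channels overlap.

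The other members past the cutoff in both channels in MKN74 were lower after knockdown. MMP11, or stromelysin-3, known from the stroma around carcinomas, had a Cy3 signal of 34.1 and a Cy5 signal of 17.7, a log2 ratio of -0.94 ± 0.32 (scanner error). In MKN45 the same probe gave 29.3 and 23.5 (Cy3 and Cy5), a log2 ratio of -0.32 ± 0.29, inside the cutoff. ADAMTS13, at its probe on chr9:136324399-136324458 (GRCh37, plus strand), gave 177 in Cy3 and 81.1 in Cy5 in MKN74, a log2 ratio of -1.12 ± 0.23 (scanner error), the lowest among the members measured in both channels there. In MKN45 it gave 344 and 240, a log2 ratio of -0.52 ± 0.21, inside the cutoff.

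In MKN45, MMP7 and ADAM22 were the 2 members higher in both channels, of 34, and 0 were lower. The background was 0.814% higher and 1.62% lower among all probes measured in both channels on this array. MMP7, or matrilysin, a small MMP of glandular epithelium that has no hemopexin domain, gave 359 in Cy3 and 730 in Cy5. This was a log2 ratio of 1.02 ± 0.22 (scanner error), or 2.03-fold, and MMP7 also was selected by the study. In MKN74 the MMP7 probe was not well above background in either channel (4.46 and 2.53), so no response could be measured there. ADAM22, a neural ADAM without protease activity that binds LGI proteins, gave 31.5 in Cy3 and 47.3 in Cy5. Its log2 ratio of 0.59 ± 0.27 lay 0.00040 above the cutoff.

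The MMP7 signal comes from 1 spot of a 60-base probe on chr11:102394029-102394088 (GRCh37, minus strand), shown because the highest MMP ratio in MKN45 that was measured in both channels rests on it alone. Its sequence is given in lower case, 5′ to 3′.
MMP7 probe: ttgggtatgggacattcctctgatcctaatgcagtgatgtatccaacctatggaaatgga

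Counting members measured in at least 1 channel, 8 were higher and 2 lower in MKN74, of 35, where 3.78% and 1.76% of all probes so measured passed the cutoff. In MKN45, 9 were higher and 1 lower, of 44, where the background was 4.81% and 1.97%. Of the higher ones, 6 of the 8 in MKN74 and 7 of the 9 in MKN45 were measured in Cy5 only. They cannot be counted as support, and their values follow by role.

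MMP3, or stromelysin-1, gave the highest log2 ratio of any member in MKN74, 2.40 ± 0.70 (scanner error), from a Cy3 signal of 4.44 that was not well above background and a Cy5 signal of 23.5. As a bound it was at least 1.38-fold higher, which is under the cutoff. For such bounds both channels were first scaled across the arrays. The dim channel was then set to a floor, the dimmest scaled signal called well above background. Bounds set by this floor are not quotients of the signals printed here. Where the dim channel's own scaled signal was higher it was kept, and the value is then the measured ratio and no bound. Both kinds of value are open to dye bias. MMP10, or stromelysin-2, gave 4.65 and 9.36 in MKN45, a log2 ratio of 1.01 ± 0.85, for which no bound above 1 could be given. Each of these stromelysins was not well above background in the other line.

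MMP25, a membrane-anchored MMP known from neutrophils, was the only member gene higher past the cutoff in both lines. Its probe A_33_P3262124 gave Cy3 signals of 7.07 and 8.02 and Cy5 signals of 13.5 and 12.5 in MKN74 and MKN45, all measured in Cy5 only, with log2 ratios of 0.93 and 0.64 and no bound above 1. Its other probe was measured in both channels in MKN74, with a log2 ratio of 0.17, and in Cy5 only in MKN45, with 0.68. Thus 1 member probe was higher in both lines and 0 were lower in both, of 29 measured on both arrays, beside 0.75% and 0.373% of all such probes. Of 9 leukocyte marker probes, 6 were measured in MKN45 and 4 in MKN74, where 0 were past the cutoff. In MKN45, 1 PTPRC probe and CD3E were past it in Cy5 only, with log2 ratios of 1.36 and 0.62. Another PTPRC probe, measured in both channels there, gave -0.29. Of the leukocyte probes measured in both channels, 0 were past the cutoff in either line. The RNA came from cultured cell lines, and the source of these marker signals and of the MMP25 signal was not tested.

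The remaining membrane-type MMPs stayed within the cutoff wherever they were measured. MMP14, or MT1-MMP, the activator of pro-MMP2, gave log2 ratios of -0.27 in MKN74 and -0.12 in MKN45. MMP15 gave -0.12 and 0.09, and MMP17 gave 0.08 and 0.14, all within their scanner errors of about 0.20. MMP24 was measured in MKN74 only, at 86.7 in Cy3 and 120 in Cy5, a log2 ratio of 0.47 ± 0.22. MMP19, MMP23B and MMP28 (epilysin), of the other MMPs, had log2 ratios between -0.29 and 0.35 in MKN74 and between -0.24 and 0.03 in MKN45.

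Neither inhibitor that could be measured was past the cutoff. TIMP1 gave 4593 in Cy3 and 5050 in Cy5 in MKN74, a log2 ratio of 0.14 ± 0.20, and 1768 and 2089 in MKN45, a log2 ratio of 0.24 ± 0.21. TIMP2, which blocks MMPs and also takes part in the activation of pro-MMP2 by MMP14, gave 17815 and 17581 in MKN74, a log2 ratio of -0.02 ± 0.20, and 264 and 315 in MKN45, a log2 ratio of 0.26 ± 0.21. TIMP3, the inhibitor bound to matrix, and TIMP4 were not well above background in either channel of either line.

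Among the ADAMs, the main sheddases ADAM10 and ADAM17 were within the cutoff. ADAM10, which cuts Notch and the amyloid precursor protein, had 2 probes, with log2 ratios of 0.34 and 0.19 in MKN74 and 0.43 and 0.20 in MKN45. All 4 values were above 0 and within the cutoff. ADAM17, which releases tumour necrosis factor and ligands of the epidermal growth factor receptor, gave -0.07 and 0.08. ADAM8, an ADAM known from immune cells, gave 0.32 and 0.13, and both ADAM15 probes stayed between -0.25 and 0.00 in both lines.

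The ADAM calls beside ADAM22 rested on a single channel. ADAM19 (meltrin beta) gave 16.9 and 29.0 in MKN45, a measured log2 ratio of 0.78 ± 0.33 (scanner error) with only Cy5 well above background. Its other probe was not well above background. ADAM21 and ADAM32 in MKN74 and ADAM7 in MKN45, which are best known from testis and epididymis, had log2 ratios of 0.62, 1.70 and 1.46 with Cy5 signals of 14.0, 11.5 and 9.75 and no bound above 1. ADAM12 (meltrin alpha) went in opposite ways at 2 probes. A_33_P3256848 had a log2 ratio of 0.70 in MKN74 (at least 1.15-fold higher) and 0.34 in MKN45, both in Cy5 only. A_33_P3310929 was measured in MKN45 alone and in Cy3 alone, at 21.0 against 9.69 in Cy5, a measured log2 ratio of -1.12 ± 0.49.

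The ADAMTS group held ADAMTS13, described above, and otherwise few measured members. ADAMTS9, a protease of versican and aggrecan, gave 24.1 in Cy3 and 38.5 in Cy5 in MKN74. This was a measured log2 ratio of 0.67 ± 0.35 (scanner error) with only Cy5 well above background. In MKN45, where both channels were measured, the log2 ratio of ADAMTS9 was 0.21. ADAMTS8 gave 280 and 376 in MKN45, a log2 ratio of 0.42 ± 0.21, inside the cutoff. ADAMTS10, which acts on fibrillin microfibrils, gave 12.6 and 24.9 in MKN45, as a bound at least 1.59-fold higher. Only its Cy5 signal was well above background, which ties its ratio to its selection. The second ADAMTS13 probe was measured only in Cy5 in MKN45, with a log2 ratio of 0.62 and no bound above 1. ADAMTS7, which cleaves cartilage oligomeric matrix protein, had 2 measured probes whose 4 log2 ratios lay between -0.16 and 0.00. ADAMTS7 has near-identical pseudogene copies, and whether its probes bind them was not tested.

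**Figure D2:**
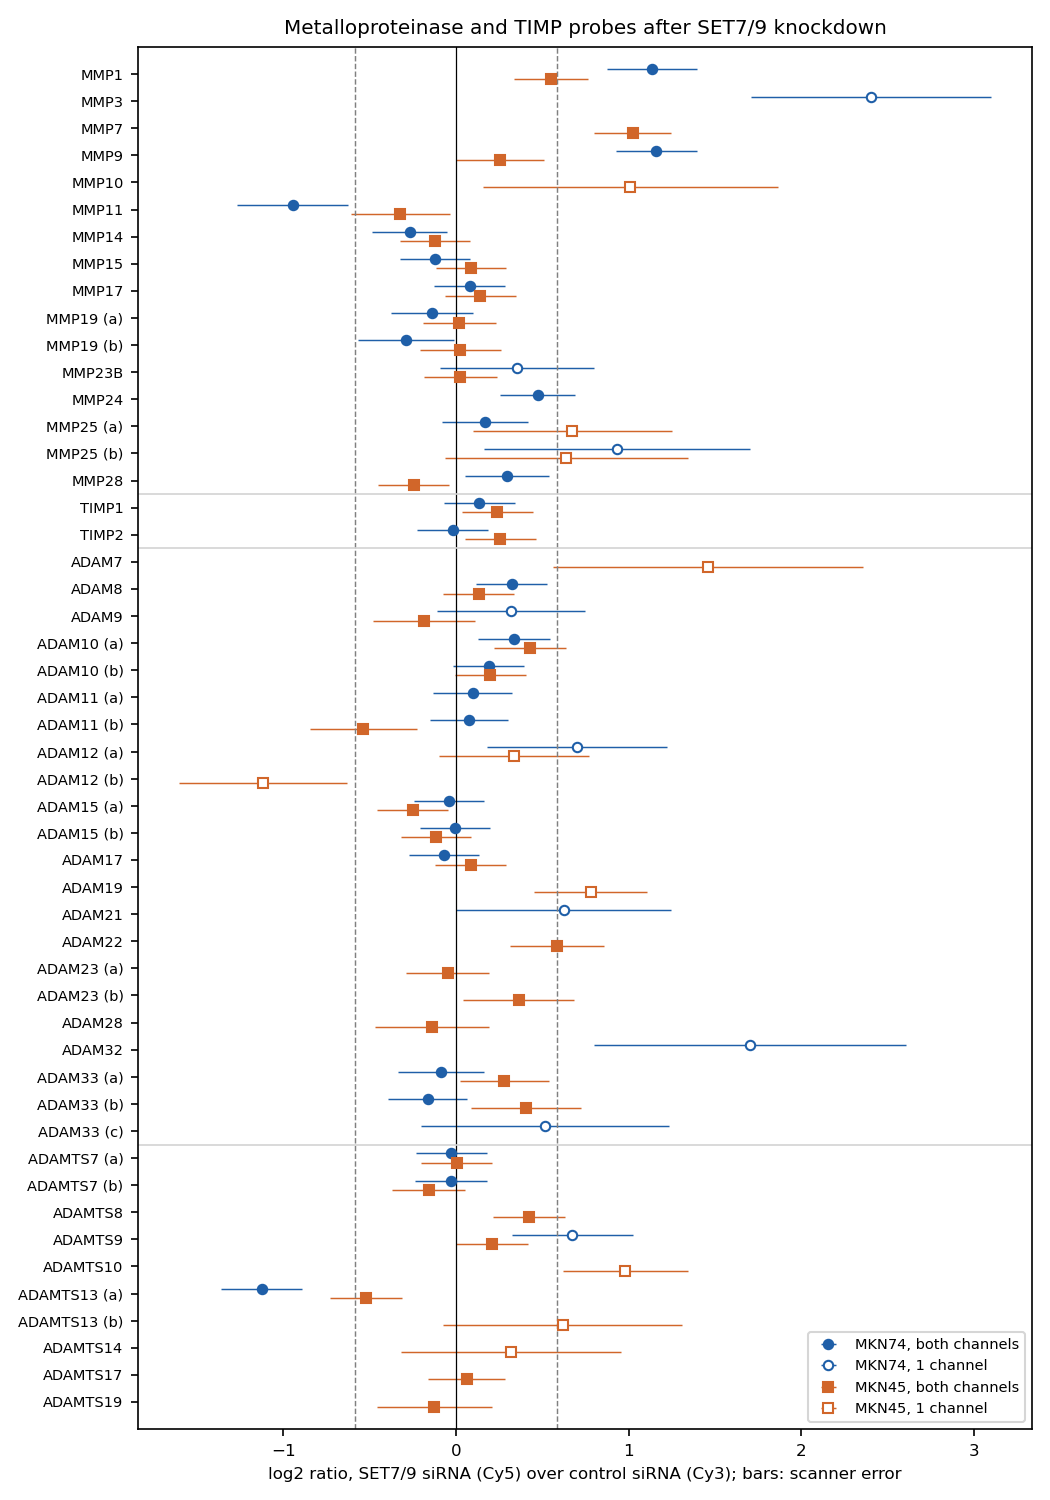
Log2 ratio of SET7/9 siRNA over control siRNA for each member probe measured in at least 1 channel, by family, in MKN74 (blue circles) and MKN45 (orange squares), with bars for the scanner error and dashed lines at 1.5-fold; letters mark different probes of a gene and open symbols probes measured in 1 channel only. Filled symbols pass the dashed lines only for MMP1, MMP9, MMP11 and ADAMTS13 in MKN74 and for MMP7 and, on the line, ADAM22 in MKN45.

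With both-channel values alone, the medians of the 3 protease subfamilies lay near 0 except for the ADAMTS genes in MKN74, of which 2 were measured. In MKN74 the median log2 ratio was 0.12 over 10 MMP genes, 0.03 over 6 ADAM genes and -0.57 over 2 ADAMTS genes (ADAMTS7 and ADAMTS13), and it was -0.01 over all 14487 genes so measured. In MKN45 it was 0.06 over 10 MMP genes, 0.11 over 10 ADAM genes and -0.01 over 6 ADAMTS genes, and 0.00 over all 15730 genes. Of the members measured in both channels, 10 genes were above 0 and 10 below in MKN74, and 18 were above and 10 below in MKN45. Over all genes so measured, 6952 were above and 7535 below in MKN74, and 7834 above and 7896 below in MKN45. With genes measured in 1 channel included, the MKN74 medians were 0.32 for 12 MMPs, 0.29 for 10 ADAMs and -0.03 for 3 ADAMTS genes, and those in MKN45 were 0.11 for 12, 0.13 for 13 and 0.14 for 8. These include genes kept through Cy5 alone, and the ADAMTS value in MKN74 thus rests on which 2 or 3 genes were counted.

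Among members measured on both arrays, the response differed most between the lines for MMP9, which was past the cutoff in MKN74 alone. For each probe measured on both arrays, the log2 ratio in MKN45 minus that in MKN74 was taken, and past 1.5-fold 2 members were lower in MKN45 (MMP9 at -0.91 ± 0.34 and ADAM11 at -0.61 ± 0.38) and 2 were higher (MMP11 at 0.62 ± 0.43 and ADAMTS13 at 0.60 ± 0.32), with errors combined from both scanner errors. All 4 were measured in both channels on both arrays. Over all probes the shares were 3.07% lower and 3.27% higher, and over those measured in both channels 0.927% and 1.6%. MMP1 lay just inside at -0.58 and 1 ADAM33 probe at 0.57. ADAM11, a neural ADAM without protease activity, gave 0.08 in MKN74 and -0.54 in MKN45 at that probe. No replicate error exists for these differences, and they were not tested.

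The lines pointed the same way for 13 of the 23 member probes measured in both channels on both arrays (56.5%), against 65.9% of all such probes. In a limma fit with both arrays as samples, which leaves 1 residual degree of freedom, 0 of 29 members had an adjusted p under 0.05, as was so for 0.0% of all 19595 probes. Without adjustment, 6 of 29 had a p under 0.05, beside 13.1% of all probes, and the lowest adjusted p among the members was 0.355 by limma. Among these 6, MMP25 (A_33_P3262124) and ADAM12 (A_33_P3256848) were measured in Cy5 only on both arrays, which ties their ratios to their selection. With both channels measured on both arrays, 7 of 23 members had an unadjusted limma p under 0.05, beside 16.5% of all such probes. The lowest adjusted p among those members was 0.241. Another background correction (normexp, then loess) brought 5 of 29 under an adjusted p of 0.05, namely ADAMTS13, MMP1, ADAMTS9, 1 ADAM10 probe and MMP9, beside 8.72% of all probes. Of these, ADAMTS9 was measured in Cy5 only in MKN74. The normexp and loess correction also shrank the ratios of dim probes. Only MMP9 in MKN74 (0.84), MMP7 in MKN45 (0.99) and ADAMTS13 in MKN74 (-0.78) stayed past 1.5-fold under it, while MMP1 in MKN74 came to 0.55 and MMP3 to 0.46.

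The control levels of many members differed between the lines, among them both measured inhibitors. The Cy3 signal of each probe was divided by its array's 75th percentile and compared between the lines, with the dimmest signal called well above background as the floor of a bound, and 12 member probes were at least 2-fold higher in MKN45 and 12 at least 2-fold lower, of 38 measured in Cy3 in at least 1 line. Among all probes, 22.7% were higher and 17.5% lower. The higher ones were 6 MMP, 2 ADAM and 4 ADAMTS probes, and the lower ones 4 MMP, 2 TIMP and 6 ADAM probes. Each comparison is of the same probe in the 2 lines, with 1 RNA sample per line and no test.

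TIMP1 and TIMP2 were lower in the MKN45 control. TIMP2 (probe on chr17:76849063-76849122, GRCh37, minus strand) had a Cy3 signal of 17815 in MKN74 and 264 in MKN45, 59.5-fold lower after scaling. TIMP1 had 4593 and 1768, 2.29-fold lower. All 3 probes of the sheddases ADAM10 and ADAM17 were lower as well, by 2.19-fold and 2.09-fold for ADAM10 and 3.96-fold for ADAM17. ADAM8 was 6.55-fold lower (12806 against 1721). MMP24 was at least 4.81-fold lower, ADAM11 at least 3.50-fold at 1 probe, MMP25 at least 2.37-fold, ADAM33 2.73-fold at 1 probe, MMP9 2.56-fold and MMP17 2.33-fold.

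MMP7, MMP14 and the aggrecanase group members ADAMTS8 and ADAMTS9 were over 10-fold higher in the MKN45 control. MMP7 had a Cy3 signal of 4.46 in MKN74, not well above background, and 359 in MKN45, at least 23.4-fold higher. MMP14 (probe on chr14:23315791-23315850, GRCh37, plus strand) had 92.2 and 1390, 17.1-fold higher. ADAMTS8 was at least 18.3-fold higher. ADAMTS9 was 15.2-fold higher as measured, with its MKN74 signal of 24.1 not well above background. MMP23B (at least 6.55-fold) and MMP28 (6.11-fold) followed. MMP23B has a near-identical pseudogene copy, and whether its probe binds it was not tested. MMP1 was 3.54-fold higher and ADAMTS13 2.21-fold higher, whereas MMP11 was at 0.977 of its MKN74 level. The line with the lower control signal was MKN74 for MMP1 and MKN45 for MMP9, and both genes had the higher ratio in MKN74. Whether control level bears on the ratio was not tested.

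**Figure D3:**
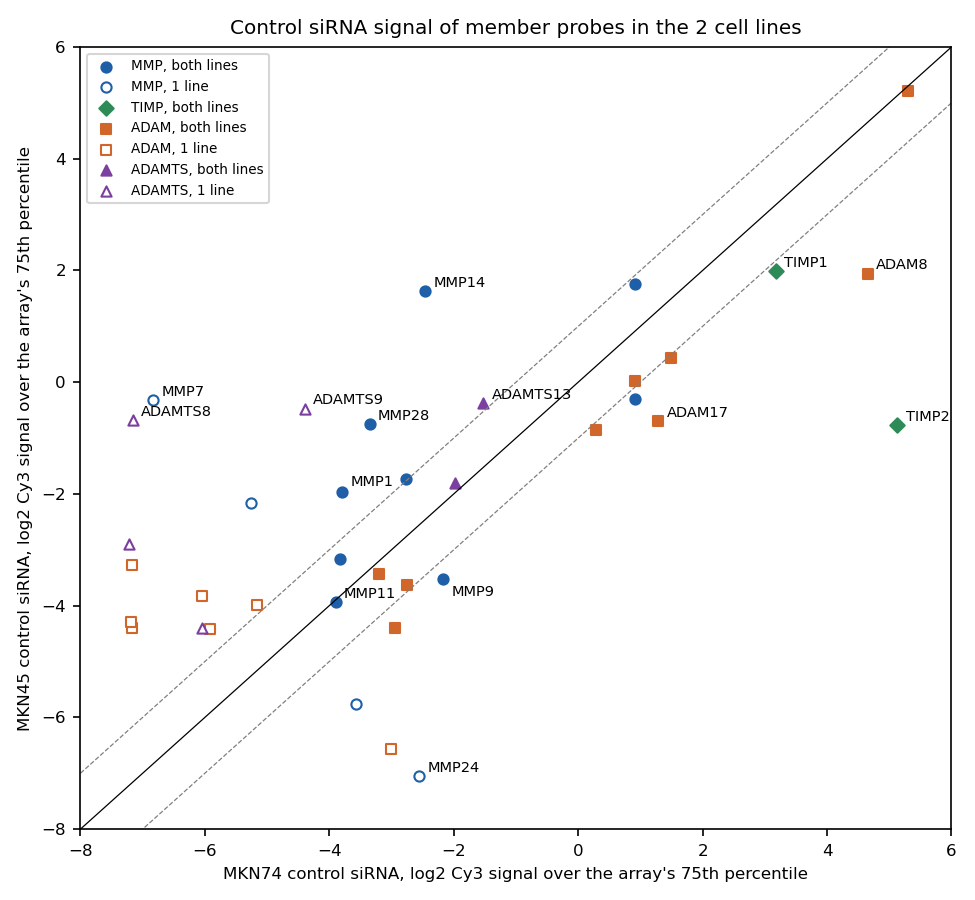
Control siRNA (Cy3) signal of each member probe in MKN74 (horizontal) and MKN45 (vertical), as log2 over the array's 75th percentile, with shapes and colours for the families and open symbols where only 1 line was well above background; the solid line marks equal levels and dashed lines 2-fold. TIMP2, ADAM8 and MMP24 lie far below the line and MMP7, ADAMTS8, ADAMTS9 and MMP14 far above it.

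The knockdown channel, which held separate RNA of the same lines, gave similar differences. All 12 members that were higher in MKN45 in Cy3 were also at least 2-fold higher in Cy5, and 11 of the 12 lower ones were lower, the exception being an ADAM33 probe. In Cy5 the counts were 18 higher and 14 lower of 49 measured, beside 23.9% and 17.4% of all probes. TIMP2 was 49.5-fold lower and MMP14 18.8-fold higher there.

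A cluster on chromosome 11 holds 9 of the MMP genes, with probes within 420 kb of each other on GRCh37. Of these, MMP1 was measured in both lines, MMP3 in MKN74 alone, and MMP7 and MMP10 in MKN45 alone. MMP8, MMP12, MMP13, MMP20 and MMP27 were not well above background in any channel. Every log2 ratio of a measured cluster gene was above 0. The ratios ran from 1.13 to 2.40 in MKN74 (2 genes) and from 0.55 to 1.02 in MKN45 (3 genes). Over all measured genes, 8215 of 15989 were above 0 in MKN74 and 9402 of 17544 in MKN45. MMP3 and MMP10 were measured in Cy5 only, which ties their ratios to their selection. Without them only MMP1 and MMP7 are left, and the study had selected both.

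**Figure D4:**
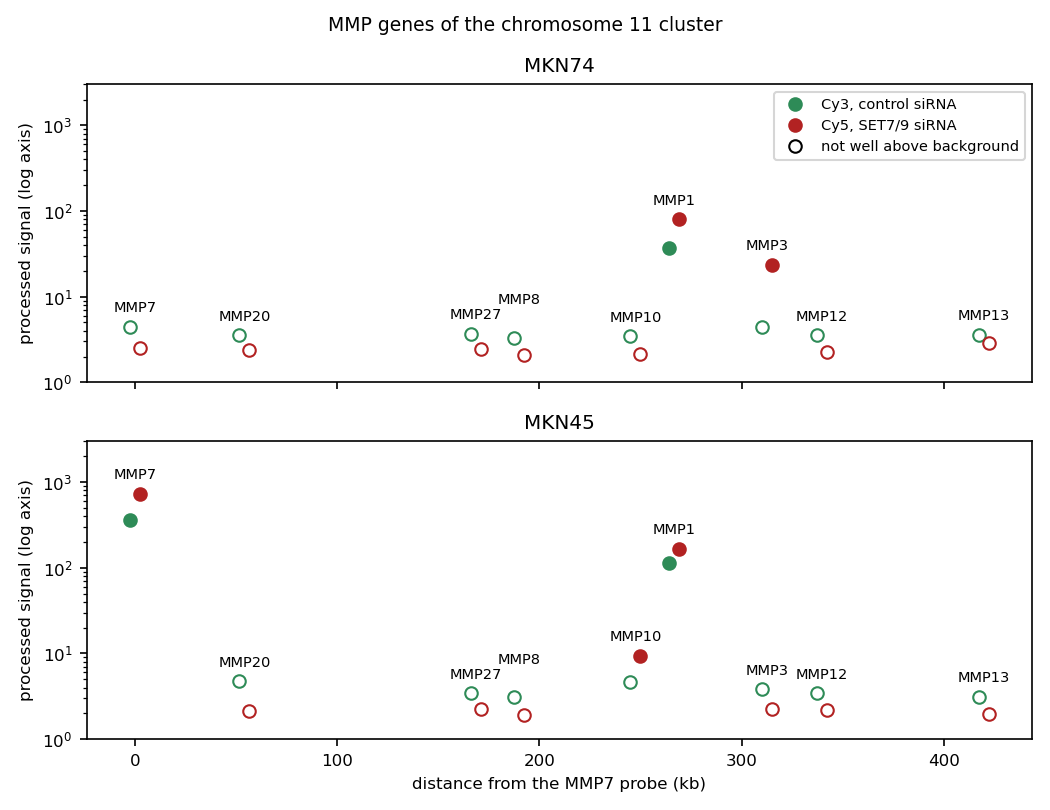
Processed Cy3 (control siRNA, green) and Cy5 (SET7/9 siRNA, red) signal on a log axis for the 9 MMP genes of the chromosome 11 cluster, by distance of their probes from the MMP7 probe in kb, in MKN74 (top) and MKN45 (bottom); open circles were not well above background. MMP1 is filled in both panels, MMP3 in Cy5 at the top, and MMP7 and, in Cy5, MMP10 at the bottom.

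The stretch of 120 bases before the RefSeq start (GRCh38.p14) is shown for the 3 cluster genes in whose promoter window the AP-1 motif was found. Of these, MMP7 was measured in both channels in MKN45, MMP10 in Cy5 only with no bound above 1, and MMP20 in no channel of either line. Capitals mark the AP-1 motif TGANTCA and the TATA motif TATAAA, searched on both strands, which do not overlap each other in these stretches. All 3 genes lie on the minus strand, and each stretch reads 5′ to 3′ towards the start.
MMP7, chr11:102530748-102530867: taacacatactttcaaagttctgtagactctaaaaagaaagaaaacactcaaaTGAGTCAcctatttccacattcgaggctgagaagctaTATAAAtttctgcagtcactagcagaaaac
MMP10, chr11:102780629-102780748: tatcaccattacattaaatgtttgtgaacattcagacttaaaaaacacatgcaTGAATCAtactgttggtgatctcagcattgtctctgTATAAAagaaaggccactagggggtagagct
MMP20, chr11:102625333-102625452: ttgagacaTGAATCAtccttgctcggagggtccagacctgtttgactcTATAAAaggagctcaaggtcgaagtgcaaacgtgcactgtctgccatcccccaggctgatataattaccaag

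The AP-1 motif begins 67 bases before the start in both MMP7 and MMP10 and 112 bases before it in MMP20. The TATA motif begins 30, 31 and 72 bases before the start. In windows from 250 bases before to 50 after the start, the AP-1 motif was in 4 of 39 member genes with a window (MMP7, MMP10, MMP20 and ADAMTS12), beside 7.73% of all 34796 windows, and the TATA motif in 8, beside 11.6%. MMP20 and ADAMTS12 hold the AP-1 motif and were not well above background in either line. MMP1, MMP3 and MMP9 had no entry in the promoter table.

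Genes that work with these proteases were counted in the same way. Of 35 activators, inhibitors, cofactors and relatives (61 probes), 39 probes were measured in MKN74, with 3 higher and 1 lower, and 40 in MKN45, with 1 higher and 1 lower. The shares of all probes were the 3.78% and 1.76% and the 4.81% and 1.97% given above. Those measured in both channels were TSPAN5, a tetraspanin that guides ADAM10, with a log2 ratio of 0.78 ± 0.22 in MKN74 and 0.13 in MKN45, the protease inhibitor gene SERPINE2 with 0.71 ± 0.28 in MKN45, and ADAMTSL1 with -0.76 ± 0.45 in MKN45. In MKN74, SERPINE2 (0.75) and BMP1 (0.68) were measured in Cy5 only and MME (-1.40) in Cy3 only. The median log2 ratio of the measured probes was -0.04 in both lines. RECK, a membrane-bound MMP inhibitor, was not well above background in either line.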

How the data were processed

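The authors deposited Agilent Feature Extraction 10.7.3.1 output (the version is from the submitters' processing notes) for 2 arrays, with spot intensity per channel on a linear scale, background-subtracted and dye-normalized, flags for spots well above background, saturated or outlying, a log10 ratio (Cy5 to Cy3), the error of that ratio and an error-model p-value. The deposited value table holds log2 ratios and was used as an alternative. Probe coordinates are on GRCh37. For dim probes, the authors' software put surrogate values in place of signals at background before the dyes were normalized.

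Ratios were converted to log2 and averaged over the spots of each probe, without control spots and spots flagged as outliers. Probes for which 50% or more of the spots were well above background, in Cy3 or Cy5, entered the counts. No member spot was saturated (0 on each array). The levels of the control channel were scaled to the 75th percentile of all gene probes. Bounds of a ratio used Aquantile scaling of both channels, and bounds of a control level the 75th percentile. The common response was fitted in limma 3.58.1 (R 4.3.3) with Benjamini-Hochberg adjustment over all probes, and the fit was tested on simulated data. Alternatives were normexp (offset 50) with loess, median centring, the deposited table, stricter and no filters, medians over spots, a 2-fold cutoff and an error-model p under 0.01. Of 91 member probes, 88 had a RefSeq accession and all 88 matched the RefSeq table under the same symbol; promoter sequences are RefSeq's. A split of the ADAMs by their protease site needed protein sequences and is not reported here.

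Genes named are member probes past the cutoff, MMP1, MMP7 and MMP9, the TIMPs, ADAM10 and ADAM17, the largest differences between lines in response and control level, probes that disagree, and listed partners past the cutoff; the others named are given for their role. The members and lists were chosen with earlier results of these data known. With 1 array per line, p-values from both arrays measure the spread between 2 lines only.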

Additional observations from a re-analysis of the deposited data

How the results depend on the processing

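Counts of members past 1.5-fold depended on how dim probes were handled. In MKN74, where 8 members were higher and 2 lower, normexp and loess left 1 higher and 1 lower, the value table as deposited and the filter on both channels left 2 higher each, a 2-fold cutoff 4 higher and 1 lower, and an error-model p under 0.01 left 3 higher, while no filter gave 5 lower. In MKN45, with 9 higher and 1 lower, these settings gave 1, 2, 2, 3 and 2 higher in the same order, and 0 lower under normexp, the deposited table, both channels and the error-model p, while no filter gave 12 lower. Of the 20 member values past the cutoff, 3 stayed past it under normexp and loess and 17 came inside with the same sign, median centring kept 19, medians over spots kept all 20, and the deposited table held 6, all past it. The normexp setting added an offset of 50 to both channels, which by arithmetic shrinks the ratios of dim probes most. The 17 values that came inside had Cy3 signals of at most 36.8 (MMP1 in MKN74). The 3 that stayed had 113 (MMP9 in MKN74), 177 (ADAMTS13 in MKN74) and 359 (MMP7 in MKN45). How much of the loss came from the offset was not tested.

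The MMP median in MKN74 was 0.13 under normexp, 0.12 under both channels and 0.13 (0.125) in the deposited table, 0.23 with the brightest probe per gene, 0.00 (0) with no filter and 1.15 with the error-model p. The ADAM median in MKN74 was 0.12 under normexp, 0.04 (0.035) in the deposited table, 0.032 under both channels and 0 with no filter. The ADAMTS median in MKN74, -0.03 as counted with 1 channel, was 0.05 under normexp, 0 with no filter and -0.03 with the brightest probe, but -0.57 under both channels, -0.575 in the deposited table and -1.12 with the error-model p. In MKN45 no filter gave medians of 0 for MMPs, -0.030 for ADAMs and 0 for ADAMTS. The error-model p gave 0.79 for MMPs and 0.98 for ADAMTS, and the ADAMTS median was -0.01 in the deposited table and -0.0074 under both channels. The error-model p keeps only genes with a large ratio for its error, so its medians lie far from 0 by selection. In MKN74 they rest on MMP1, MMP3, MMP9 and MMP11, and on ADAMTS13 alone. In MKN45 they rest on MMP1 and MMP7, and on ADAMTS10 alone, measured in Cy5 only. With no filter, the ratios of 42 of 91 member probes in MKN74 and 26 in MKN45 were exactly 0.

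For the difference of response between lines, normexp and loess left 0 higher and 1 lower in MKN45, no filter gave 7 and 16, a 2-fold cutoff 0 and 0, and the error-model p 1 lower. Control levels under normexp on Cy3 gave 6 higher and 6 lower. The shared response rose from 0 to 5 members under normexp and loess. No paired analysis was possible because each line has 1 array and the labels carry no shared replicate numbers, and no replicate could be left out. What limits the members is signal over background: 56 of 91 probes in MKN74 and 47 in MKN45 gave no ratio that can be read, and the Cy5-only values are open to dye bias.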

Other observations

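Member genes with several measured probes mostly gave close ratios. Of 16 cases of a gene with at least 2 measured probes on an array, 3 differed by a range past the 1.5-fold cutoff with at least 1 probe past it, ADAM12 in MKN45 (-1.12 and 0.34), ADAMTS13 in MKN45 (-0.52 and 0.62) and MMP25 in MKN74 (0.17 and 0.93). In each of them at least 1 of the probes was measured in 1 channel only. MMP19, ADAM15 and ADAMTS7 gave ranges of at most 0.16 on the log2 scale in either line.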
